A study of Homo sapiens with 12 samples.

Results

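The joint action of the thiol-reactive drug APR-246 (APR) and 5-azacytidine (AZA) was examined in SKM1, an established human cell line of myeloid leukaemia, as the interaction term of a 2 by 2 design. The term was computed on the log2 signal as the APR-AZA mean minus the APR mean minus the AZA mean plus the untreated (NT) mean. It is 0 where the combination multiplies the fold changes of the single drugs, positive where the combined level lies above that expectation and negative where it lies below. Every row of the table with 1 gene symbol was a member, which gave 28125 genes from 29413 rows, and all 12 arrays entered, 3 for each group. The groups were cells without drug (NT), cells given APR at its IC50 (a standard measure of an inhibitor's potency), cells given AZA at its IC50, and cells given both (APR-AZA). RNA was taken at 18 h, and each array received 250 ng of total RNA. All groups are this 1 line, with no other genotype, and no dose in molar units was at hand for either drug. In bulk RNA of this kind, fewer cells of a type and less RNA per cell cannot be told apart.

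AZA mimics cytidine, enters nucleic acids and depletes the enzymes that methylate DNA. APR releases a product that binds thiols, among them glutathione and the selenoenzyme thioredoxin reductase. Thiol and oxidant stress frees the transcription factor NRF2 from its repressor KEAP1 and thereby turns on genes of glutathione, thioredoxin and NADPH metabolism, while shortage of amino acids such as cystine acts through ATF4. A gene reached by both drugs can be raised by the pair as the product of the single effects, by less, or by more, and this is what the interaction term measures.

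The labelled cell type was set against marker genes. Of 12 myeloid markers listed, 11 were measured, and their NT means ran from 6.4 for FLT3 to 12.99 for the lysozyme gene LYZ (log2 signal), which is the 68.6th to the 100th percentile of all genes. Most markers of other lineages read below FLT3, but not all lay near the bottom. The 3 T cell markers read 3.4 to 5.49 and the 3 B cell markers 2.95 to 5.41. The 3 erythroid markers read 2.88 to 5.91 and the 3 megakaryocytic markers 4.02 to 6.27. The epithelial marker EPCAM was bright at 9.67, and the other 3 of its list read 4.16 to 5.19. Of the 3 fibroblast markers, DCN read 3.38 and COL1A2 4.83, whereas COL1A1, at 6.49, lay above FLT3. Presence of AZA divided the arrays 6 to 6 along the leading principal component (63.9% of variance). Arrays of a group correlated at 0.994 to 0.996.

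The combination did not depart detectably from the additive expectation in any single gene. NQO1, a quinone reductase that is a classical NRF2 target, came nearest: its APR-AZA level was 1.88-fold below the expectation. For CLDN1, SLC7A11, IL1B and MYC, each with a large AZA change, the interaction was between -0.24 and 0.15 (log2). Other genes with a large AZA change lay further out, among them LUCAT1 at -0.92, ZNF366 at -0.71 and ZBTB16 at 0.42. With limma, 0 of 28125 genes were called at an adjusted p under 0.05, in either direction (0% of the genes tested), and the smallest adjusted p was 0.399. Before adjustment, 990 genes (3.52%) had a p under 0.05, and 1406 would be expected with no interaction anywhere. Nothing in the labels tells if the triplicates were separate cultures, so these p-values measure only the spread between arrays, which may be technical.

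The interaction had a median of -0.002 over all genes, and its central 95% ran from -0.34 to 0.36 (log2). It lay above 0 in 13916 genes (49.5%) and below 0 in 14209. The estimate passed 1.5-fold in 198 genes, 110 above and 88 below the expectation, and 2-fold in 8 genes, all above it. These 8 were LOC101928156, LINC00494, LOC107987303, PDCD6IPP2, LOC107985729, MIR4441, FAM90A27P and MIR1258, which were named after their values were seen. They are noncoding, pseudogene or otherwise little described transcripts.

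A p above the threshold does not show additivity, so the width of the intervals was examined as well. The standard error of the interaction had a median of 0.15 (log2). The 95% interval of the interaction lay wholly within 2-fold of additivity for 27430 genes (97.5%) and within 1.5-fold for 21623 (76.9%). The 7031 brightest genes, with mean signals of 7.18 to 13.64, had 99.6% of its intervals within 2-fold and 91.7% within 1.5-fold. In the next 7031, from 4.75 to 7.18, the shares were 95.8% and 65.1%, and from 3.69 to 4.75 they were 96.2% and 69%. The dimmest 7032, from 2.37 to 3.69, had 98.4% and 81.8%. The processing compresses dim signals, so narrow intervals there say less about additivity. Among the 695 genes whose interval reached beyond 2-fold, 26 were among the brightest.

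NQO1 reduces quinones with NADPH and had the smallest p of all genes. Its log2 signal was 7.97, 7.85 and 7.85 in the NT arrays, 8.73, 8.98 and 8.68 in the APR arrays, 10.63, 10.60 and 10.43 in the AZA arrays, and 10.56, 10.49 and 10.60 in the APR-AZA arrays. All APR arrays lay above all NT arrays, whereas the AZA and APR-AZA arrays overlapped. NQO1 rose with APR by 0.91 ± 0.09 (log2, SE, n = 3 per group, limma adjusted p = 0.0107) without AZA and stood at -0.01 ± 0.09 (adjusted p = 0.998) with AZA. NQO1 was the 1 gene called for APR without AZA (0.00356% of the genes tested), and 0 genes (0%) were called for APR with AZA, where 1319 had an unadjusted p under 0.05. The NQO1 call for APR was lost without variance moderation (limma adjusted p = 0.202), with the replicate number as a block (0.0533), without NT replicate 2 (0.114), without NT replicate 3 (0.116) and on unlogged signal (0.875). The additive expectation for the combination was 11.46 and the measured mean 10.55, which is an interaction of -0.91 ± 0.13 (95% interval -1.20 to -0.62, adjusted p = 0.399). The brightest signal on each array was 13.6 to 13.7. The adjusted p of the interaction ran from 0.0512, with a trended and robust variance, to 1 over the alternatives.

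The genes next to NQO1 by p below 0 had a like layout in part. They were picked by the interaction p of these same arrays. Their layouts follow in part from that pick and are given only as a description. ZNF366, a zinc finger corepressor known from dendritic cells, read 5.30, 5.32 and 5.42 in NT, 6.12, 5.91 and 5.96 in APR, 8.61, 8.54 and 8.42 in AZA, and 8.50, 8.38 and 8.51 in APR-AZA. Its APR and NT arrays did not overlap, and its AZA and APR-AZA arrays did. RAB7B, a small GTPase of late endosomes, read 6.36, 6.25 and 5.99 in NT, 6.74, 6.93 and 7.0 in APR, 8.40, 8.54 and 8.49 in AZA, and 8.54, 8.55 and 8.34 in APR-AZA. As with ZNF366, the groups separated without AZA and overlapped with it. The interaction was -0.71 ± 0.12 for ZNF366 (adjusted p = 0.774) and -0.69 ± 0.15 for RAB7B (adjusted p = 1), and neither was called for APR alone (adjusted p = 0.0588 and 0.272). CLDN10, a claudin of tight junctions, also had APR arrays, at 4.09, 4.01 and 4.09, above NT arrays, at 3.89, 3.96 and 3.97, but differed with AZA, with APR-AZA arrays at 3.24, 3.17 and 3.38 below AZA arrays at 3.72, 3.56 and 3.64. Its interaction was -0.50 ± 0.11 (adjusted p = 1) at signals in the lower part of the array. The uncharacterised LOC101927263 stood at -0.54 ± 0.12 (adjusted p = 1), with each APR array higher than each NT array and AZA and APR-AZA arrays that overlapped.

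Above 0, the smallest p belonged to CCL3L3, a copy of the chemokine gene CCL3. It read 4.78, 4.75 and 4.82 in NT, 4.46, 4.47 and 4.46 in APR, 7.02, 7.01 and 7.15 in AZA, and 7.32, 7.41 and 7.25 in APR-AZA. APR arrays lay below NT arrays without AZA, and APR-AZA arrays lay above AZA arrays. The interaction was 0.58 ± 0.10 (95% interval 0.36 to 0.81, adjusted p = 0.774), and since the CCL3 copies are nearly identical, the probes may read more than 1 of them. LOC101928156 had the largest estimate of all genes, 1.72 ± 0.31 (adjusted p = 0.774). It read 5.13, 5.70 and 5.66 in NT, 4.94, 4.90 and 4.87 in APR, 3.96, 3.43 and 3.86 in AZA, and 4.41, 5.38 and 4.84 in APR-AZA. The APR-AZA arrays lay above all AZA arrays and spread over almost 1 log2 unit. MIR4441, a row for a microRNA precursor, stood at 1.06 ± 0.22, TMEM82, which encodes a membrane protein, at 0.75 ± 0.15, and TOX-DT, a transcript divergent from TOX, at 0.71 ± 0.16, each with an adjusted p of 1. In TMEM82 and TOX-DT the APR arrays lay below the NT arrays and the APR-AZA arrays above the AZA arrays. The genes above 0 were likewise picked by the interaction p of these same arrays. Such layouts follow in part from the pick and are only described.

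**Figure D1:**
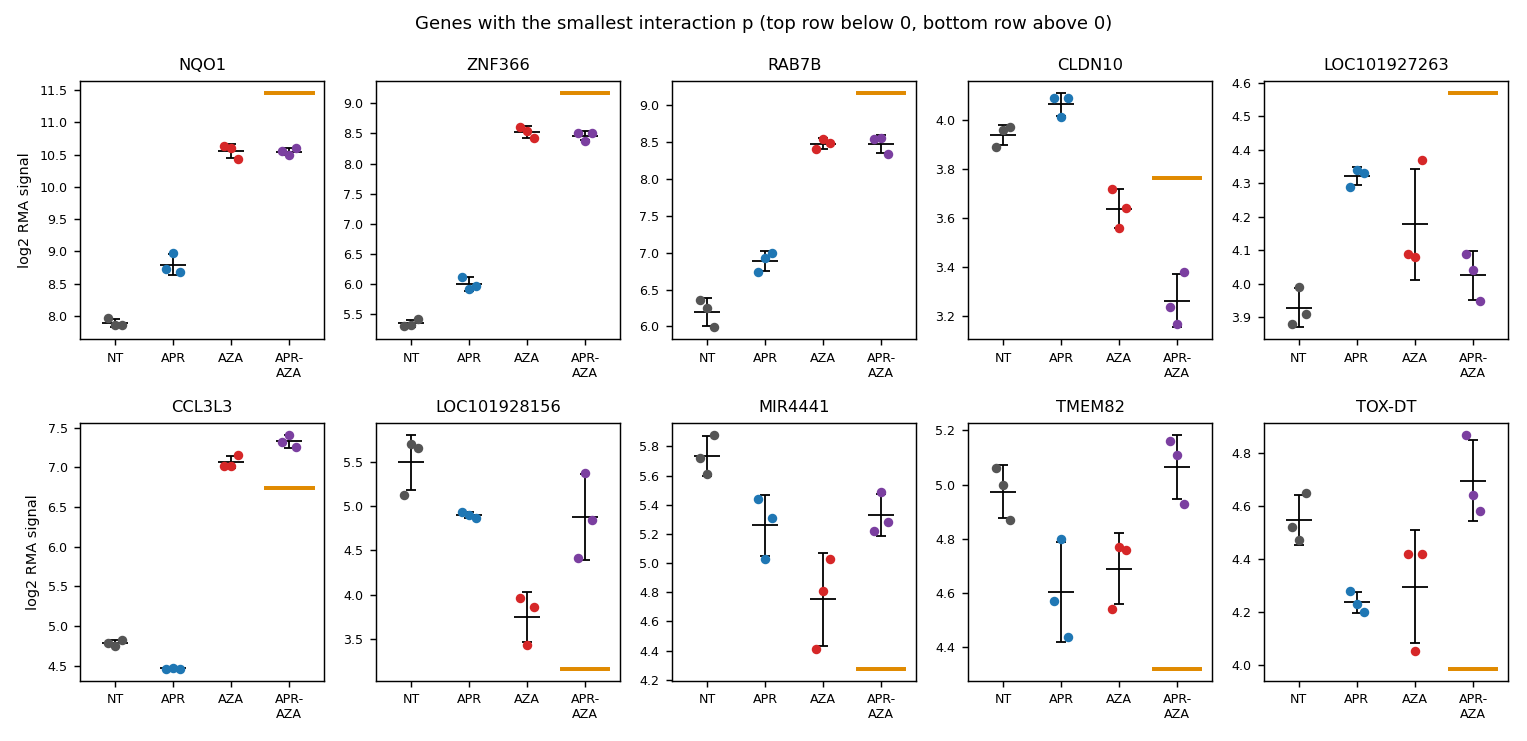
Log2 signal of each array (points) with group mean and SD (black, n = 3) for the 10 genes with the smallest interaction p; the orange line is the additive expectation for APR-AZA. NQO1 shows APR arrays above NT arrays but AZA and APR-AZA arrays at 1 level, 0.91 below the expectation of 11.46, and none of the 10 genes was called.

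The NRF2 targets were followed by role. Of the 34 measured members, 0 were called in the interaction, 11 lay above 0 and 23 below, and the median was -0.09 against -0.002 over all genes. Over all genes 49.5% lay above 0. Members of a list share the same arrays and are not independent. Counts above 0, here and in the lists below, are therefore descriptions and were not tested. For APR without AZA the median change of the list was 0.12, and for APR with AZA it was 0.06. AZA itself raised 21 of the 34 without APR and 22 with APR, where 9.79% and 9.45% of all genes were called higher, and the median changes were 0.65 and 0.67. The list's APR change without AZA enters its interaction with the sign reversed, so these medians are parts of 1 arithmetic and not separate evidence. The interval reached beyond 2-fold in 1 member, NQO1.

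The malic enzyme ME1, which makes NADPH, had the largest negative value of the list after NQO1. It read 7.74, 7.74 and 8.05 in NT, 8.26, 8.33 and 8.17 in APR, 9.87, 9.74 and 9.63 in AZA, and 9.70, 9.72 and 9.79 in APR-AZA, an interaction of -0.43 ± 0.14 (adjusted p = 1). Its APR arrays lay above its NT arrays, and its AZA and APR-AZA arrays overlapped. In glutathione synthesis and cystine uptake, GCLM, the modifier subunit of glutamate-cysteine ligase, stood at -0.29 ± 0.13, and the cystine transporter SLC7A11 at -0.24 ± 0.12. OSGIN1, an oxidant-induced growth inhibitor, stood at -0.35 ± 0.17, with an APR change of 0.56 ± 0.12 without AZA and 0.21 ± 0.12 with it. In the thioredoxin branch, TXNRD1, the cytosolic thioredoxin reductase, stood at -0.17 ± 0.10. SRXN1, which repairs oxidised peroxiredoxins, sat at the additive expectation: the APR change was 0.31 ± 0.08 both without and with AZA, and the interaction was -0.002 (95% interval -0.23 to 0.23). HMOX1, which degrades haem, lay above 0 at 0.19 ± 0.15. Other members above 0, named after their values were seen, were TRIM16L at 0.36 ± 0.24, the aldo-keto reductase AKR1C3 at 0.30 ± 0.18 and the epoxide hydrolase EPHX1 at 0.27 ± 0.11 (95% interval 0.04 to 0.51). The adjusted p of each of these interactions rounds to 1.

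Promoters of 4 members are shown, picked by p or by letters. NQO1 and ME1 have the smallest interaction p of the list. GCLM, TXNRD1 and ME1 hold letters that match the antioxidant response element, which NRF2 can bind, but no binding was measured. The 4 were chosen after their values were seen. The sequences are from RefSeq on GRCh38.p14 and run 5′ to 3′ from 250 bases before to 50 after the start, and capitals mark the letters TGACNNNGC on either strand. NQO1 lies at chr16:69726511-69726810 (minus strand), GCLM at chr1:93909381-93909680 (minus strand), TXNRD1 at chr12:104215529-104215828 (plus strand) and ME1 at chr6:83431002-83431301 (minus strand).
NQO1: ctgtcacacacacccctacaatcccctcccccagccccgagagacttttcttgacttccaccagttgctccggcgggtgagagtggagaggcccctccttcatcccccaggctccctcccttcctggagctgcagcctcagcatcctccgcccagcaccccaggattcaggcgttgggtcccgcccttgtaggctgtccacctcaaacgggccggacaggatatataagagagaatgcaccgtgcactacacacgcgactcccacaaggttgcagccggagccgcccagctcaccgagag
GCLM: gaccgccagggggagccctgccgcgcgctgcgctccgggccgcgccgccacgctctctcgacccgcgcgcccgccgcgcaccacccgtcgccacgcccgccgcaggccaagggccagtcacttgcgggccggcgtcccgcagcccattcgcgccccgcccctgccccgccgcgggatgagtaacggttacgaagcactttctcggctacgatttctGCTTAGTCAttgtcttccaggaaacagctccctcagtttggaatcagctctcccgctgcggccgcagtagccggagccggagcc
TXNRD1: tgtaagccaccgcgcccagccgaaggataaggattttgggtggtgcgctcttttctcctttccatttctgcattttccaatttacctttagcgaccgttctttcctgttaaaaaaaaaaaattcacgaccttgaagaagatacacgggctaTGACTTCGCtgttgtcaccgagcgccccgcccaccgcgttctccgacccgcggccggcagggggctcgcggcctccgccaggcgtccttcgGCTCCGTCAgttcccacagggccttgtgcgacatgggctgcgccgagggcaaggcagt
ME1: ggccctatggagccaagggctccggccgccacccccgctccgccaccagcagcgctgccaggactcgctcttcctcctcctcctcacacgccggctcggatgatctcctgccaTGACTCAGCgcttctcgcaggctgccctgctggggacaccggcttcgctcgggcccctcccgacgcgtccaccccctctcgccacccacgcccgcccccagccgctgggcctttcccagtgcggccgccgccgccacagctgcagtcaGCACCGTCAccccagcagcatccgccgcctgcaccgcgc
The letters occur in 6 of the 26 list members with a promoter in the table (23.1%) and in 3702 of 27305 promoters of the same length (13.6%). Lists of other pathways held the letters as often or more often, among them the ATF4 list (9 of 30 promoters), the p53 target list (6 of 22) and the G1/S list (6 of 24). Besides the genes shown, the list members PGD, CBR1 and GPX2 hold the letters. GCLM holds 1 match, TXNRD1 and ME1 hold 2 each, and the NQO1 window holds none, with bases outside the window not searched. The members with and without the letters in this window thus include both ME1, at -0.43, and NQO1, at -0.91.

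**Figure D2:**
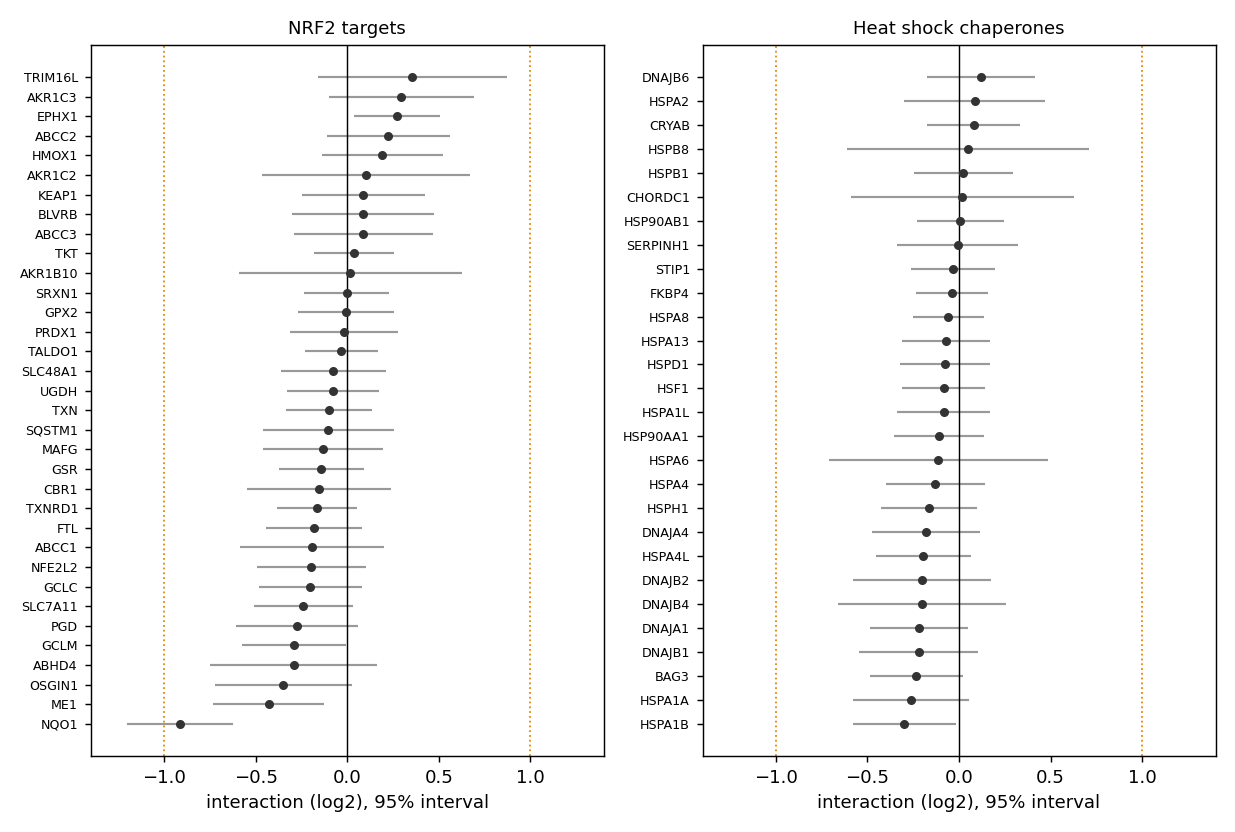
Interaction (log2, points) with 95% intervals for each measured NRF2 target (34 genes, left) and heat shock chaperone (28 genes, right); dotted lines mark a 2-fold departure. NQO1 is the 1 gene whose interval crosses a dotted line, and most members of both lists lie left of 0 with intervals that reach it.

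Heat shock chaperones, which refold damaged proteins, had a median interaction of -0.08, with 7 of 28 members above 0 and 0 called. HSPA1B stood at -0.30 ± 0.13 and HSPA1A at -0.26 ± 0.15. Both encode inducible HSP70, and since they are almost identical their probes may read either. HSPA1B read 10.67, 10.62 and 10.44 in NT, 10.70, 11.01 and 10.92 in APR, and averaged 9.97 in AZA and 9.98 in APR-AZA. The APR arrays lay above the NT arrays, and the arrays with AZA were level. DNAJB1, their co-chaperone, stood at -0.22 ± 0.15. With AZA, 9 members were called lower and 4 higher without APR, and 13 lower and 4 higher with it. Of all genes, 11.1% were called lower and 9.79% higher without APR, and 11.2% lower and 9.45% higher with APR.

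The list for ATF4 and amino acid shortage had the highest median, 0.10, with 27 of 37 members above 0 and 0 called. AZA raised 34 of the 37 and lowered 2 both without and with APR, where 9.79% and 9.45% of all genes were called higher and 11.1% and 11.2% lower. The median change was 1.27 without APR and 1.41 with it. DDIT4, a stress-induced brake on mTORC1, read 6.21, 5.66 and 5.44 in NT, 5.18, 6.0 and 5.74 in APR, 10.45, 10.60 and 10.63 in AZA, and 10.77, 10.81 and 10.75 in APR-AZA. Its NT and APR arrays overlapped and its APR-AZA arrays lay just above its AZA arrays, an interaction of 0.34 ± 0.28. ATF3, a stress-induced bZIP factor, was at 0.34 ± 0.44 with APR arrays from 3.23 to 4.78, too scattered to bound the interaction within 2-fold (95% interval -0.62 to 1.30). The proapoptotic factor DDIT3 stood at 0.29 ± 0.21, CHAC1, which cleaves glutathione, at 0.12 ± 0.16, asparagine synthetase ASNS at 0.09 ± 0.10 and the pseudokinase TRIB3 at -0.04 ± 0.20. ASNS was held most tightly of these, with an interval of -0.13 to 0.30. Among synthetases that load amino acids onto tRNAs in the cytosol, 16 of 19 lay above 0 by a median of 0.03, and all 19 intervals lay within 1.5-fold of additivity. VARS1 and AARS1 had the largest values there, 0.15 ± 0.19 and 0.14 ± 0.13.

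The unfolded protein response of the endoplasmic reticulum had a median of 0.04 with 20 of 26 members above 0. MANF, a secreted stress factor, read 9.11, 8.95 and 8.94 in NT, 8.61, 8.81 and 8.86 in APR, 7.93, 8.05 and 7.82 in AZA, and 7.92, 8.10 and 8.11 in APR-AZA. APR arrays lay below NT arrays, AZA and APR-AZA arrays overlapped, and the interaction was 0.35 ± 0.14. SDF2L1, an ER chaperone cofactor, stood at 0.28 ± 0.18. In glutathione, thioredoxin and ferroptosis genes the median was 0.02, and the peroxiredoxin PRDX4 stood at 0.28 ± 0.17. Of the metallothioneins, which bind zinc, MT1X stood at 0.33 ± 0.15 and MT1G at 0.28 ± 0.18, and 7 of the list's 14 members lay above 0. In these 3 lists 0 members were called.

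The interaction is also the difference between the AZA response with APR and without it. These changes share no array. AZA called 5878 genes without APR (20.9%) and 5813 with APR (20.7%). Of these, 4767 were called in both with 1 direction, 2166 higher and 2601 lower, which is 81.1% of the first list and 82.0% of the second, and 0 were called in opposite directions. The median size of the change over these 4767 genes was 0.62 without APR and 0.61 with it (log2). Over all 28125 genes the changes correlated at r = 0.91 (Spearman's rho 0.69), a description across genes that were normalized together and are not independent. For the APR changes without and with AZA, which also share no array, the value was r = 0.06 (rho 0.05). The spread over genes (SD) was 0.13 for each, while the difference of these changes, the interaction, had a median SE of 0.15. An unadjusted limma p under 0.05 was reached by 1095 genes for APR without AZA and by 1319 with AZA. With no change anywhere 1406 would be expected. Most APR changes were thus not told apart from error. An r near 0 therefore does not show that the APR response differed with AZA.

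**Figure D3:**
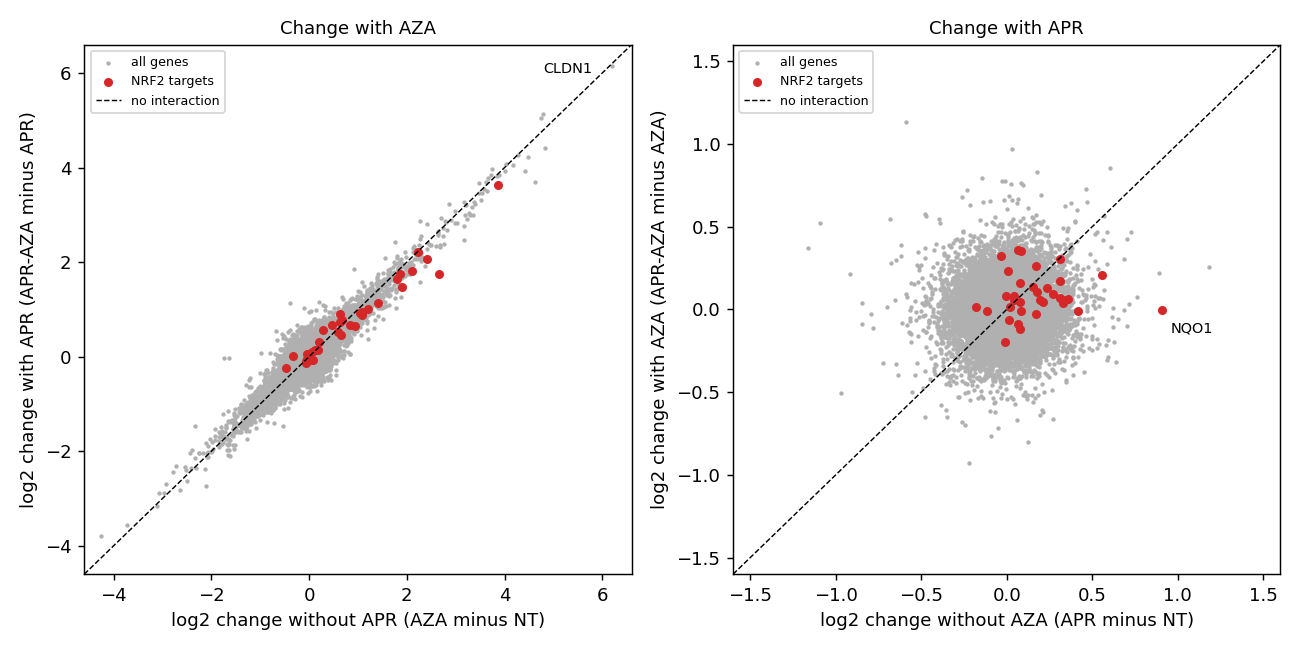
Each point is a gene: left, the log2 change with AZA in the absence (x) and presence (y) of APR; right, the log2 change with APR in the absence (x) and presence (y) of AZA; NRF2 targets are red and the dashed line marks no interaction. AZA changes lie along the line up to CLDN1 at 6.20 and 6.15. APR changes, most of them not told apart from error, form a round cloud, with NQO1 at 0.91 and -0.01.

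Genes with large AZA changes were read array by array. CLDN1, a tight junction protein, read 4.56, 4.60 and 4.76 in NT, 4.97, 4.73 and 4.73 in APR, 11.14, 10.88 and 10.50 in AZA, and 10.75, 11.05 and 11.08 in APR-AZA. The AZA change was 6.20 without APR and 6.15 with it, and the interaction was -0.05 ± 0.21 (95% interval -0.50 to 0.41). SLC7A11 read 7.98, 7.87 and 8.15 in NT, 8.28, 8.37 and 8.28 in APR, 11.98, 11.75 and 11.85 in AZA, and 11.89, 11.96 and 11.95 in APR-AZA. Its APR arrays lay above its NT arrays and its AZA and APR-AZA arrays overlapped. The inflammatory cytokine IL1B changed by 3.38 without APR and 3.27 with it, an interaction of -0.11 ± 0.15.

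The other members of the AZA-induced list were picked for their AZA change in these same NT and AZA arrays, and that change enters the interaction with a minus sign, so they are given as a description. Of its 10 members, 2 lay above 0. All 10 were called higher both without and with APR, where 9.79% and 9.45% of all genes were called higher. The calls without APR follow from how the list was picked. LUCAT1, a stress-responsive long noncoding RNA, had the largest negative value, -0.92 ± 0.32 (95% interval -1.63 to -0.22, adjusted p = 1). It read 3.63, 3.77 and 3.89 in NT, 4.26, 5.20 and 5.38 in APR, 8.57, 8.41 and 8.16 in AZA, and 8.82, 8.45 and 8.64 in APR-AZA. All APR arrays lay above all NT arrays but spread over more than 1 log2 unit, and without APR replicate 1 the interaction was -1.27. The collagen hydroxylase P3H2 stood at -0.49 ± 0.19, with AZA changes of 4.42 and 3.93. The members not named by the rule (ORM1, C5AR1, CD101, PPP1R17, S100P, BET1-AS1 and ITGAX) ran from -0.42 for BET1-AS1 to 0.30 for ORM1.

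**Figure D4:**
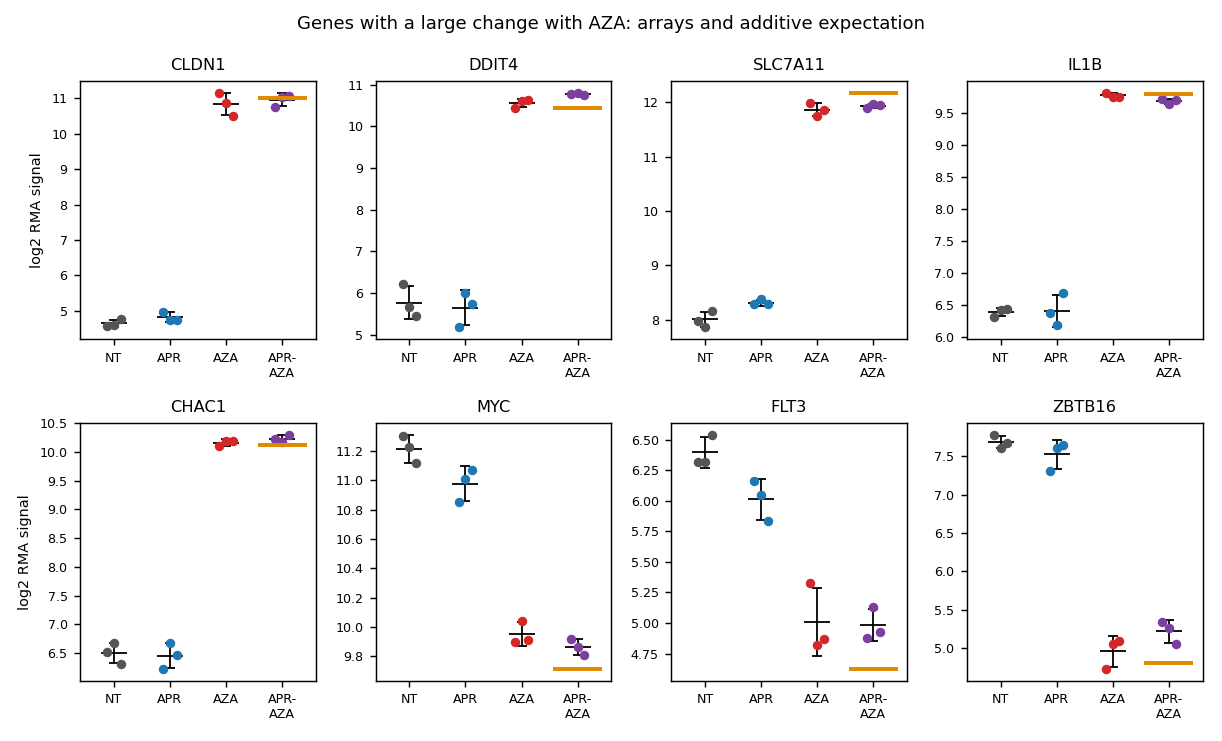
Log2 signal of each array (points) with group mean and SD (black, n = 3) for 8 genes with a large AZA change; the orange line is the additive expectation for APR-AZA. The APR-AZA arrays of CLDN1 lie around the expectation, and those of FLT3 and ZBTB16 lie above it, at 0.36 and 0.42 on the log2 scale, neither called.

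MYC targets and ribosome biogenesis genes had a median of 0.00, with 15 of 30 members above 0, while AZA lowered 29 of them without APR and 28 with it (11.1% and 11.2% of all genes). MYC read 11.30, 11.23 and 11.12 in NT, 10.85, 11.01 and 11.07 in APR, 9.90, 10.04 and 9.91 in AZA, and 9.92, 9.86 and 9.81 in APR-AZA, an interaction of 0.15 ± 0.12. Each group with AZA lay below each group without. The nucleolar protein LYAR stood at -0.30 ± 0.16 and RRP9, a ribosomal RNA processing factor, at 0.27 ± 0.17. Cholesterol synthesis had a median of 0.06 with 15 of 20 above 0, led by INSIG1, a brake on sterol synthesis, at 0.32 ± 0.13 and the isomerase EBP at 0.29 ± 0.17. Oxidative phosphorylation had a median of 0.09 with 19 of 22 above 0, the complex I subunit NDUFV2 at -0.30 ± 0.24 and the cytochrome oxidase subunit COX6C at 0.30 ± 0.15. In each of these 3 lists 0 members were called, and 49.5% of all genes lay above 0.

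Stem and progenitor genes had a median of 0.04, with 15 of 23 above 0. AZA lowered 13 of them both without and with APR (11.1% and 11.2% of all genes). ZBTB16, a progenitor zinc finger factor, read 7.78, 7.61 and 7.67 in NT, 7.31, 7.61 and 7.65 in APR, 4.73, 5.06 and 5.10 in AZA, and 5.34, 5.27 and 5.05 in APR-AZA, an interaction of 0.42 ± 0.17. NT and APR arrays overlapped, as did AZA and APR-AZA arrays. The receptor kinase FLT3 read 6.32, 6.32 and 6.54 in NT, 6.16, 6.05 and 5.83 in APR, 5.33, 4.82 and 4.87 in AZA, and 4.88, 5.13 and 4.93 in APR-AZA, an interaction of 0.36 ± 0.19. APR arrays lay below NT arrays, and the arrays with AZA overlapped. The kinase FES, on the leukaemia kinase list with FLT3, stood at 0.29 ± 0.17. Among maturation genes, CEBPE, a granulocyte transcription factor, stood at 0.51 ± 0.14 (limma adjusted p = 1). It read 5.41, 5.53 and 5.20 in NT, 5.23, 5.41 and 5.15 in APR, 4.75, 4.92 and 4.74 in AZA, and 5.26, 5.22 and 5.11 in APR-AZA, so that APR-AZA arrays lay above AZA arrays. The Fc receptor FCGR3A, at 0.56 ± 0.49, was too scattered to bound.

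Apoptosis and p53 target genes gave no call. CDKN1A, the cell cycle inhibitor, read 5.41, 5.30 and 5.42 in NT, 5.30, 5.40 and 5.11 in APR, 6.52, 6.41 and 6.32 in AZA, and 6.77, 6.65 and 6.52 in APR-AZA, an interaction of 0.33 ± 0.14. Its NT and APR arrays overlapped, and its APR-AZA arrays reached from the top of the AZA arrays upward. TP53INP1 and TP53I3, a stress adaptor and an oxidoreductase, stood at 0.38 ± 0.19 and 0.36 ± 0.18, and MDM2, the p53 ubiquitin ligase, at -0.09 ± 0.14. The BH3-only genes PMAIP1 and BBC3 lay on the other side, at -0.29 ± 0.14 and -0.18 ± 0.16, and the initiator caspase CASP8 at -0.30 ± 0.17. The p53 target list had 12 of 30 members above 0 and a median of -0.03, and the BCL2 family and caspases 8 of 26 and a median of -0.03.

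In the NF-kB and cytokine list 13 of 31 members lay above 0 (median -0.02), with the neutrophil chemokines CXCL1 at -0.34 ± 0.26 and CXCL8 at -0.30 ± 0.18. Immediate early genes were split evenly, 14 of 28 above 0, with the kinase SGK1 at -0.47 ± 0.18 and IER2 at 0.38 ± 0.17. Interferon-stimulated genes had a median of 0.01, with IFI27 at -0.30 ± 0.11 and LY6E at 0.29 ± 0.28. HLA class II presentation had 10 of 13 above 0, with the antigen-presenting chains HLA-DPB1 at 0.36 ± 0.14 and HLA-DRB1 at 0.32 ± 0.15. For these 4 lists, too, 0 members were called.

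G1/S and replication genes had a median of 0.08 and 22 of 30 above 0, with the D cyclin CCND2 at 0.46 ± 0.21 and the helicase subunit MCM7 at 0.22 ± 0.17. G2/M and mitosis genes had a median of -0.09 and 6 of 30 above 0, and all 30 intervals lay within 1.5-fold of additivity. The mitotic kinase CDK1 stood at -0.23 ± 0.11 and the spindle motor KIF11 at -0.22 ± 0.11. DNA repair genes had a median of -0.04 and 7 of 24 above 0, with XRCC6, which binds broken DNA ends, at -0.31 ± 0.21 and NBN at -0.20 ± 0.13. No member of the 3 lists was called, and whether these medians differ from each other or from those of other genes was not tested.

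RNA levels of genes of DNA methylation and of azacytidine uptake and nucleotide metabolism gave no call in the interaction. All 16 measured genes of the first list and all 26 of the second had intervals within 2-fold of additivity. The maintenance methyltransferase DNMT1 read 10.38, 10.43 and 10.50 in NT, 10.32, 10.35 and 10.41 in APR, 10.28, 10.28 and 10.24 in AZA, and 10.28, 10.24 and 10.28 in APR-AZA, an interaction of 0.07 ± 0.10. The methyl-CpG binding protein ZBTB38 stood at -0.27 ± 0.13 and the cofactor DNMT3L at 0.14 ± 0.22. Of the 26 measured genes of azacytidine uptake and nucleotide metabolism, 12 lay above 0, with NME2, a nucleoside diphosphate kinase, at -0.33 ± 0.22 and the pyrimidine enzyme DHODH at 0.24 ± 0.19. Replication-dependent histones had a median of 0.00, with H4C2 at 0.29 ± 0.15 and H2BC9 at -0.26 ± 0.22.

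In the remaining lists EGLN3, a hypoxia-induced prolyl hydroxylase, stood out by size at -0.70 ± 0.25 (95% interval -1.24 to -0.15, adjusted p = 1). It read 5.84, 5.96 and 5.51 in NT, 5.97, 5.63 and 6.20 in APR, 4.98, 5.08 and 5.12 in AZA, and 4.92, 4.36 and 4.30 in APR-AZA. NT and APR arrays overlapped, and APR-AZA arrays lay below AZA arrays. The hormone gene ADM, also induced by hypoxia, stood at -0.34 ± 0.16. Proteasome subunits had a median of 0.03, with PSMA2 at -0.31 ± 0.18 and PSMB6 at 0.20 ± 0.19. Autophagy and lysosome genes had a median of -0.02, with the LC3 genes MAP1LC3B2 at -0.61 ± 0.48 and MAP1LC3A at 0.34 ± 0.19. MAP1LC3B2 had NT arrays from 4.05 to 5.81 and its interval, -1.66 to 0.44, allows more than 2-fold.

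**Figure D5:**
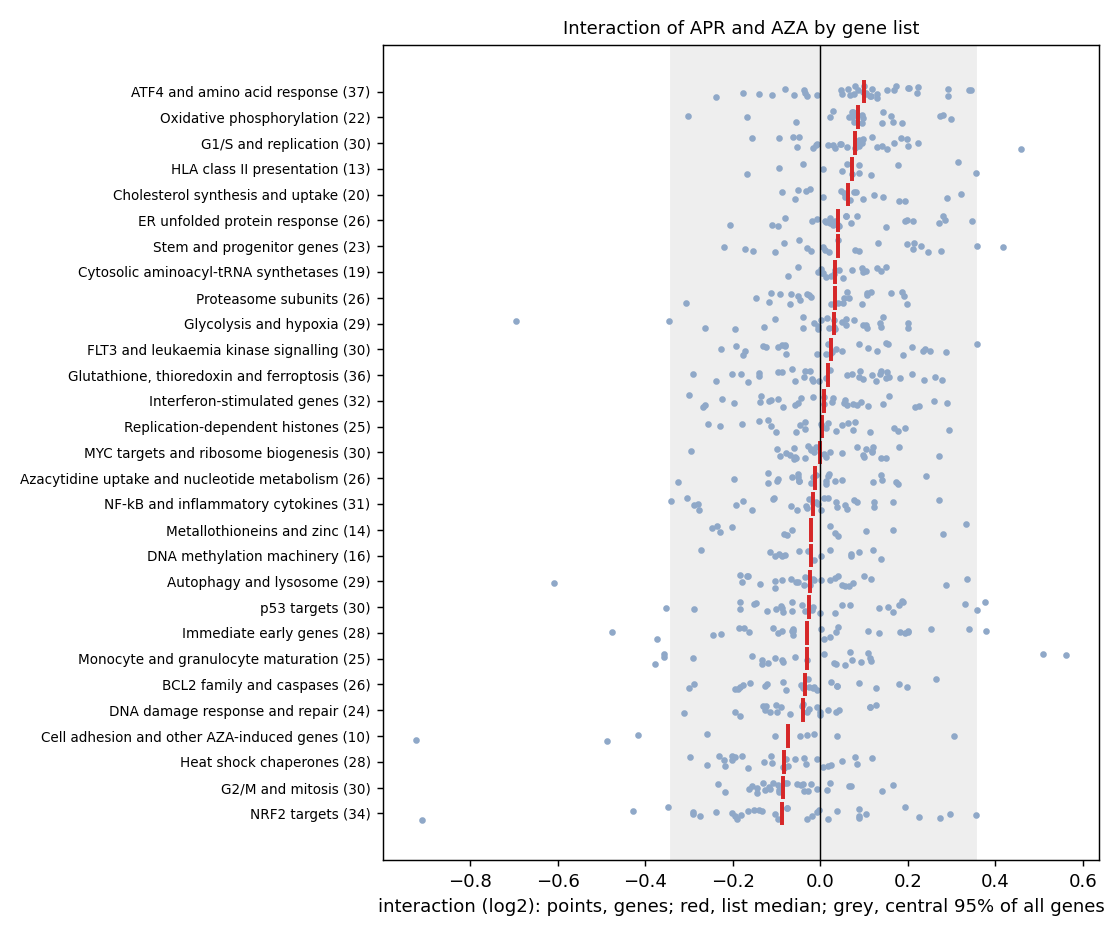
Interaction (log2) of each measured member (points) of 29 gene lists with the list median (red), ordered by median; the grey band is the central 95% of all genes, -0.34 to 0.36. List medians run from -0.09, shared by NRF2 targets and G2/M and mitosis genes, to 0.10 for the ATF4 and amino acid response. In each list 0 members were called.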

How the data were processed

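Gene expression was measured on 12 Affymetrix arrays of SKM1 cells, 3 for each of 4 groups set by the sample titles. The deposited values are on the log2 scale, 1 column per array. RMA and Partek produced them, per the submitters' processing notes, with versions, chip definition and build not given in the sources used here. RMA equalises the arrays' distributions, so a shift shared by most genes would be lost, and it compresses dim signals. Arrays have no counting depth; their number limits precision. Array medians were 4.69 to 4.78.

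Of 29413 rows, 28129 had 1 symbol in the platform annotation, 0 several and 1284 none. For 4 symbols on several rows the brightest was kept, leaving 28125 genes, with no filter. A limma 3.58.1 model (R 4.3.3; lmFit, eBayes) with 4 group means and 8 residual degrees of freedom gave the interaction and the 4 single changes. P-values were adjusted by Benjamini-Hochberg over all genes and called under 0.05; 95% intervals use the moderated standard error. The fit was tested on simulated data.

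The 29 lists held 811 entries, 749 of them measured. Members, lists and rules were chosen with earlier results of these data known. The rule named the 15 called genes with the largest interaction in each direction (with 0 called, the 5 with the smallest p), for each list its called members or the 2 with the largest values, and 26 fixed genes. The 7 further AZA-induced members, the 4 promoters and the genes over 2-fold were added after seeing values. Alternatives were unlogged signal, a filter on the dimmest 30%, other normalizations, variance models, weights, a replicate block and leaving out each array.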

Additional observations from a re-analysis of the deposited data

How the results depend on the processing

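The count of 0 genes called in the interaction, higher or lower, held under each of the 21 alternative settings, and unadjusted p under 0.05 was reached by 667 (dimmest genes left out) to 1395 genes (without NT replicate 3). The smallest adjusted p of any setting was 0.0512, for NQO1 with a trended and robust variance. Without APR replicate 1 it belonged to LUCAT1 (0.454). APR with AZA gave 0 calls in the same settings other than unlogged signal, for which that count was not run. For APR without AZA the 1 called gene, NQO1, became a count of 2 with dim genes left out and 0 without variance moderation or with the replicate block, and 0 to 2 over runs without 1 array (2 without APR replicate 1, 0 without NT replicate 2 or NT replicate 3). The AZA counts were 4921 to 5951 without 1 array and 5416 to 6419 otherwise, in settings chosen after seeing the data. Replicate numbers are shared by the titles. Same-numbered arrays of different groups correlated in their deviations at -0.25 to 0.14 (median -0.04), and other-numbered arrays at -0.19 to 0.28 (median 0.02). The deviations thus showed no pairing by number, and the labels do not say if the arrays were paired. With the block 911 genes had an unadjusted p under 0.05 and the smallest adjusted p was 1.

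Of 1888 values of named genes under the alternatives, 42 changed sign and 0 were called. Additivity of unlogged signal turned LUCAT1 (46.0), SLC7A11 (122), OSGIN1 (15.6), SRXN1 (64.4), CLDN1 (138), C5AR1 (9.05), CD101 (28.8), PPP1R17 (9.42) and ITGAX (131) above 0, in signal units. On that scale a product of fold changes already exceeds their sum, and NQO1 stayed below 0 at -217. SRXN1 turned to 0.007 under repeated quantile normalization and to 0.009 with array weights, TRIB3 to 0.001 with array weights. Runs without 1 array spanned 0 for ATF3 (-0.085 to 0.69), CD101 (-0.134 to 0.09), CLDN1 (-0.216 to 0.103), DNMT3L (-0.016 to 0.259), IL1B (-0.224 to 0.028), ITGAX (-0.144 to 0.09), MDM2 (-0.154 to 0.005), PPP1R17 (-0.267 to 0.024), S100P (-0.116 to 0.133), SRXN1 (-0.05 to 0.054) and TRIB3 (-0.185 to 0.101). What 3 arrays a group limit is the width of the interval, which reached beyond 2-fold for 695 genes.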
